A study of Mus musculus with 14 samples.

Results

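The cell cycle and DNA replication genes were followed in activated mouse CD4+ T cells that lacked the histone deacetylase HDAC1, with or without loss of an allele of *Hdac2*. The members were a list of 46 genes set by name and not by a threshold on their values, though earlier results of these data were known when the list was made. They were 8 cyclins, 4 cyclin-dependent kinases, 4 genes of the RB-E2F switch, 3 CDC25 phosphatases, 15 S-phase genes, of which 11 act in origin licensing or at the replication fork and 4 supply nucleotides, and 12 mitotic genes. A gene was read by its name in the deposited tables, or, where a table held only an assembled locus without a name, by a locus that shared at least 0.8 of the joint span with the gene. In the first experiment 23 members were read by name in some libraries and by locus in others, and in the second 11 were. Of the 46 members, 42 had a usable value in every library of the first experiment and 42 in every library of the second. In all, 43767 genes had a value in every library of the first and 32521 in every library of the second.

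The series held 14 RNA-Seq libraries in 2 experiments on a C57BL/6 background. The first experiment compared 4 libraries of *Hdac1* fl/fl *Hdac2* fl/+ *Cd4*-Cre (HDAC1cKO-HDAC2HET) cells with 4 WT libraries after 3 days of culture with anti-CD3, anti-CD28, and IL-2, and viable cells were sorted before RNA isolation. The second compared 3 libraries of *Hdac1* fl/fl *Cd4*-Cre (HDAC1cKO) cells with 3 WT libraries, here called WT aCD3. These cells had 3 days of culture with anti-CD3 and anti-CD28 and were then restimulated with anti-CD3 for 12 hours. The labels give spleen as the tissue, while the study's methods describe naive CD4+ T cells sorted from spleen together with lymph nodes, and give mice of both sexes aged 6 to 12 weeks with littermate controls. For the HDAC1cKO comparison the study cites an earlier report, so these details of its methods may not cover the second experiment. *Cd4*-Cre acts from the thymus onward in every T cell that has expressed CD4, so deletion preceded activation. The times come from the study's methods and not from the sample labels. According to the study's methods the first experiment held independent cell preparations made on a single day. For the second the labels do not say whether the replicates came from separate animals, so its p-values measure the spread between these libraries. Stimulation, genotype, and experiment changed together, and mutants were compared only with the WT libraries of their own experiment.

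Naive T cells rest outside the cell cycle, and stimulation through the T cell receptor and CD28 drives them into rapid division. D-type cyclins with CDK4 or CDK6, and then cyclin E with CDK2, phosphorylate the RB family, which releases E2F factors and lets S-phase genes be transcribed. Replication origins are licensed by CDC6, CDT1, and the MCM2-7 helicase, with geminin as the brake on CDT1. Cyclin B with CDK1, switched on by CDC25 phosphatases, starts mitosis, where Polo-like and Aurora kinases build the spindle and BUB and MAD proteins hold anaphase until chromosomes are attached. Transcripts of mitotic genes peak late in the cycle, and RB family and DREAM complexes repress them in resting cells. HDAC1 and HDAC2 are found in several corepressor complexes.

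Depth was estimated from the steps of low values at 23900000 to 56000000 fragments per library, lowest in HDAC1cKO-HDAC2HET replicate 3. The deleted genes fitted their labels in every library. *Hdac1* was at 76.3 to 79.6 FPKM (the deposited unit, in which fragments are divided by transcript length and library depth) in WT and 6.65 to 10.7 in HDAC1cKO-HDAC2HET libraries, and at 72.3 to 81.1 and 8.52 to 12.1 in WT aCD3 and HDAC1cKO libraries. *Hdac2*, of which HDAC1cKO-HDAC2HET cells keep an allele, was at 58.2 to 60.3 and 34.0 to 37.0 FPKM in the first experiment. Its 3 HDAC1cKO libraries, at 74.8 to 88.1, overlapped those of WT aCD3, at 62.4 to 78.2. All 8 CD4+ T cell markers read were above 1 FPKM in every library, and their sum was 1657 to 1774 FPKM in WT, 1447 to 1542 in HDAC1cKO-HDAC2HET, 1402 to 1736 in WT aCD3, and 1589 to 1755 in HDAC1cKO libraries. In HDAC1cKO-HDAC2HET cells 7 of the 8 fell and 1, *Thy1*, rose. Of 15 markers of other cells, 13 had a value in the first experiment, with sums of 4.07 to 6.63 FPKM in WT, 12.4 to 16.2 in HDAC1cKO-HDAC2HET, 4.57 to 5.64 in WT aCD3, and 6.86 to 7.80 in HDAC1cKO libraries. Only *Cd8b1* exceeded 1 FPKM in any library, at 3.24 to 5.87 in WT and 11.4 to 14.8 in HDAC1cKO-HDAC2HET libraries, and *Itgax*, *Lyz2*, and *Pf4* were listed at 0 in all 7 WT libraries. *Xist*, which is transcribed from the inactive X chromosome of female cells, was at 58.9 to 65.2 FPKM in WT and 26.0 to 33.7 in HDAC1cKO-HDAC2HET libraries, and above 1 FPKM in 2 of 3 WT aCD3 but none of the 3 HDAC1cKO libraries. The part of these shifts in the results of the first experiment was not tested. In bulk RNA, a larger share of cells in a phase of the cycle and more transcript per cell cannot be told apart.

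**Figure D1:**
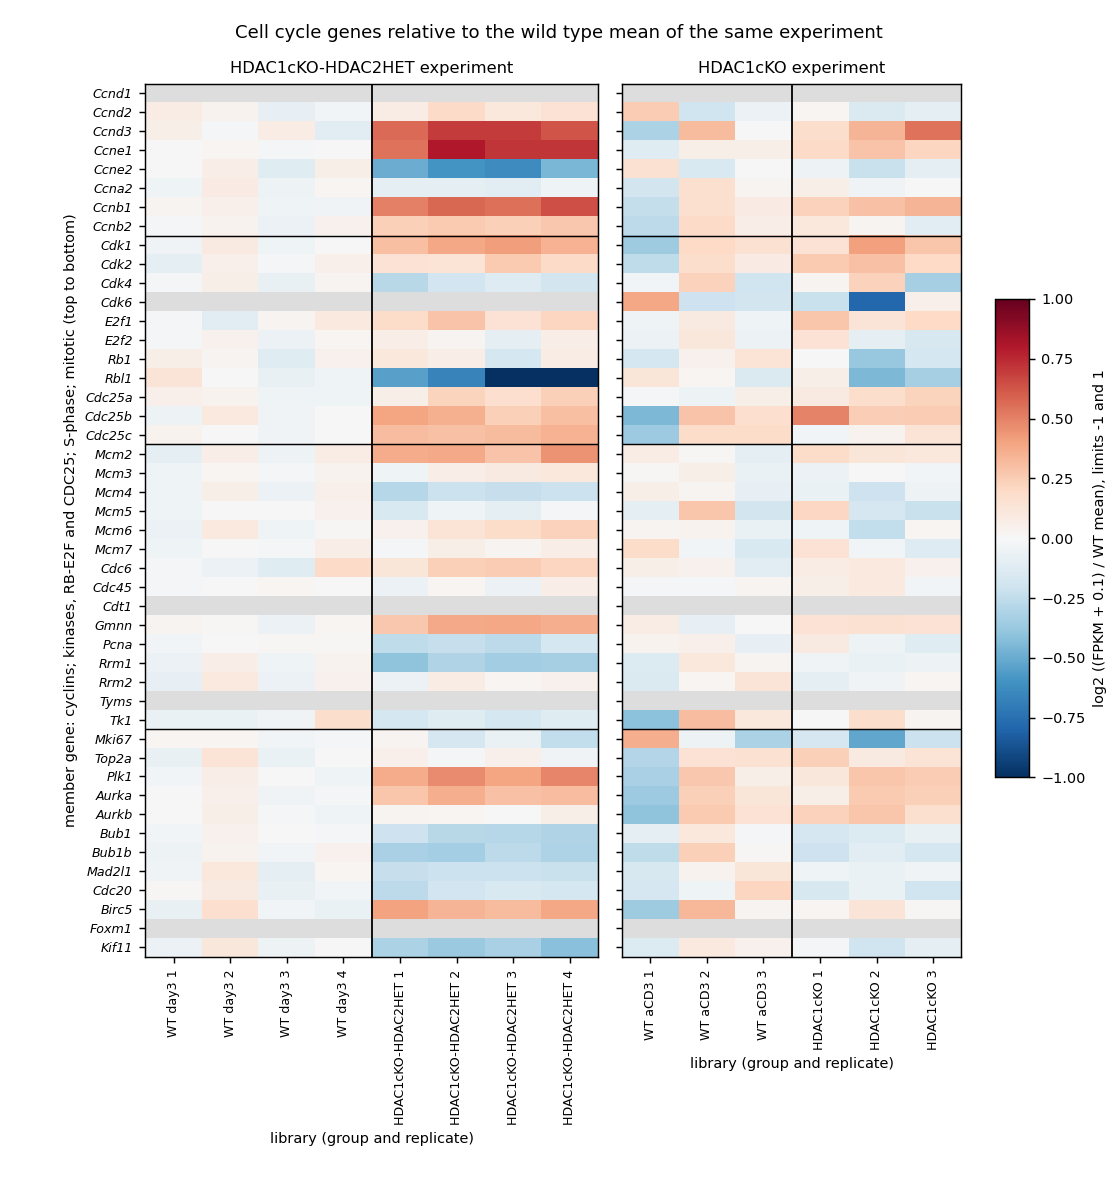
Heat map of the 46 members (rows) in the 14 libraries (columns), as the log2 ratio of FPKM + 0.1 to the WT mean of the same experiment, with colour limits at -1 and 1. Grey rows had no tested value in that experiment, and *Rbl1* reaches the lower colour limit in HDAC1cKO-HDAC2HET replicates 3 and 4. The 4 HDAC1cKO-HDAC2HET columns resemble each other and split into red and blue rows, while replicate 1 of WT aCD3 stands apart from the other 2 WT aCD3 columns.

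In HDAC1cKO-HDAC2HET cells the cell cycle genes changed in both directions and by small amounts. Of the 41 members tested, 18 rose and 11 fell (limma on log2 FPKM with an adjusted p of at most 0.05 over all genes), and the median log2 fold change was 0.02. Over all 15122 genes tested, 24.2% rose, 27.6% fell, and the median was -0.05. No member reached a fold change of 2, against 11.2% of all genes that did so with an adjusted p of at most 0.05. The smallest p that a 2-sided exact permutation test can give with 4 against 4 libraries is 0.0286, over 70 arrangements. Groups without overlap reach it by construction. The 28 members that did so are thus those without overlap counted below, and the test adds nothing to that count. The changes ran from -0.83 for *Rbl1* to 0.69 for *Ccne1*. Quantile normalization gave 15 higher and 15 lower members. The spread between libraries was narrow, with a median SD of 0.0615 in WT and 0.0563 in HDAC1cKO-HDAC2HET libraries on the log2 scale over the members. Over all genes tested the median SD was wider, at 0.125 and 0.132, so the shares of all genes come from genes with a wider spread. For 16 members every HDAC1cKO-HDAC2HET library lay above every WT library, and for 12 every one lay below. Among all genes these shares were 23.4% and 26.9%.

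Promoter sequences are given for 5 members, 3 that rose and 2 that fell, since E2F sites and the cell cycle homology region (CHR), through which E2F and DREAM complexes act, and CCAAT boxes, which NF-Y binds, are typical of such promoters. Each window, from RefSeq on GRCm38.p6, runs 5′ to 3′ on the gene's strand from 250 bases before to 50 bases after the annotated start, and capitals mark a match on either strand to an E2F word (TTTCCCGC, TTTGGCGC, TTTCGCGC, TTTGCCGC, or GGCGGGA), to a CHR word (TTTGAA or TTCGAA), or to CCAAT.

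*Ccne1* (chr7:38107441-38107740, minus strand): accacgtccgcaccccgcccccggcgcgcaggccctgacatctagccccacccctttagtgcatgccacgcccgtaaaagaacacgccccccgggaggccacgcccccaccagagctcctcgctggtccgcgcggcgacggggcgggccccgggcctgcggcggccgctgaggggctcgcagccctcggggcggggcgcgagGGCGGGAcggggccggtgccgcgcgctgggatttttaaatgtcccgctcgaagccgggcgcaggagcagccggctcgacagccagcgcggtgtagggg
*Rbl1* (chr2:157204485-157204784, minus strand): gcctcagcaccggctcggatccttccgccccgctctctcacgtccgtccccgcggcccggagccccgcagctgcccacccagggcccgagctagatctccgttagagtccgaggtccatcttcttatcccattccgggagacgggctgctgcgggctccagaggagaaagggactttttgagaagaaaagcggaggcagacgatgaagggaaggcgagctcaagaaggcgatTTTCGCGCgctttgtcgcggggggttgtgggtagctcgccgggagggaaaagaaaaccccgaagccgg
*Cdk1* (chr10:69352863-69353162, minus strand): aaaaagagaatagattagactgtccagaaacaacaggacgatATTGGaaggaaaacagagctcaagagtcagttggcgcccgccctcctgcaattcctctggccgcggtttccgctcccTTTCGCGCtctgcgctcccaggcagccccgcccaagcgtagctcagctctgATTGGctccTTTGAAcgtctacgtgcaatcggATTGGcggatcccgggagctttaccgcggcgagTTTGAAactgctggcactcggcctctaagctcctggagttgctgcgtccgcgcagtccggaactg
*Plk1* (chr7:122159185-122159484, plus strand): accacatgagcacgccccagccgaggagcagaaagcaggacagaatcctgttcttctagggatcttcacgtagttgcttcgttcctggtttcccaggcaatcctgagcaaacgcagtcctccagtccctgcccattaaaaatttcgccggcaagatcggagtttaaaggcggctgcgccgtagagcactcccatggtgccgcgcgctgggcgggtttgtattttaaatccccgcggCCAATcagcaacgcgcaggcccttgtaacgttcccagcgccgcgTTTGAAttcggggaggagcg
*Kif11* (chr19:37376132-37376431, plus strand): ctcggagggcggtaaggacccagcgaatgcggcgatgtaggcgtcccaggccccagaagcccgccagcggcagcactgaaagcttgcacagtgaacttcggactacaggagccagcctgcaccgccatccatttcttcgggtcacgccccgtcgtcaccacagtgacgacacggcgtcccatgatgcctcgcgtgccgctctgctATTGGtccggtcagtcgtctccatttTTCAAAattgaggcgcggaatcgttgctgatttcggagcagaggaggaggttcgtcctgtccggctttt

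The coordinates of genes below are those of GENCODE vM21 on GRCm38. The windows of *Ccne1* and *Rbl1* held 1 E2F word each, GGCGGGA in *Ccne1*, which rose, and TTTCGCGC in *Rbl1*, which fell. That of *Cdk1* held 1 E2F word, 2 CHR words, and 3 CCAAT matches. Those of *Plk1*, which rose, and *Kif11*, which fell, each held 1 CHR word and 1 CCAAT match. RefSeq windows were matched for 36 of the 46 members. An E2F word was in the window of 18 of 36 members (50.0%) and of 14.3% of all 27025 genes. A CHR word was in 15 members (41.7%) against 21.7% of all genes, and CCAAT in 25 (69.4%) against 41.1%. CHR words lay in 8 of 10 mitotic and 3 of 13 S-phase windows. Among members with a window, E2F words were in 8 of 15 that rose and 3 of 9 that fell, and CHR words in 6 and 4. These are matches of letters, E2F words can overlap each other, and TTCGAA reads the same on both strands.

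Of 7 cyclins tested in the first experiment, 5 rose and 1 fell, beside 24.2% and 27.6% of all genes. Their median log2 fold change was 0.25. *Ccne1* (chromosome 7, 38097984 to 38107534), which encodes cyclin E1, the activator of CDK2 at S-phase entry, was at 39.0, 39.6, 38.7, and 39.2 FPKM in WT and 57.1, 68.3, 64.4, and 64.2 FPKM in HDAC1cKO-HDAC2HET libraries. The lowest mutant library was well above the highest WT library, and the log2 fold change was 0.69 (standard error 0.052, adjusted p = 2.41e-05). *Ccne2* (chromosome 4, 11191351 to 11204779), its paralog, went the other way, at 19.0, 19.9, 17.5, and 19.8 FPKM in WT and 13.5, 12.6, 12.3, and 13.8 FPKM in mutant libraries. The groups did not overlap, and *Ccne2* fell by 0.55 on the log2 scale (standard error 0.057, adjusted p = 1.26e-04).

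*Ccnd3* (chromosome 17, 47505051 to 47599691), a D-type cyclin that partners CDK4 and CDK6 in G1, was at 92.0, 87.5, 92.8, and 81.6 FPKM in WT and 131, 143, 143, and 136 FPKM in mutant libraries, again with no overlap. Its log2 fold change was 0.65 (standard error 0.051, adjusted p = 3.08e-05). *Ccnb1* (chromosome 13, 100778650 to 100786570), the cyclin that activates CDK1 for mitosis, was at 47.4, 48.2, 45.2, and 45.5 FPKM in WT and 66.0, 69.4, 68.2, and 73.0 FPKM in mutant libraries. It rose in all 4 mutant libraries, by 0.57 on the log2 scale (standard error 0.038, adjusted p = 1.47e-05). *Ccnb2* rose less, from 67.9 ± 2.25 (SD, n = 4) to 80.7 ± 0.873 FPKM (SD, n = 4), and *Ccnd2* least, from 149 ± 7.11 (SD, n = 4) to 163 ± 5.66 FPKM (SD, n = 4). The adjusted p of *Ccnd2* was 0.0327, and it exceeded 0.05 without WT replicate 3 or 4 or HDAC1cKO-HDAC2HET replicate 2 or 4 (range over the 8 libraries left out in turn 0.0194 to 0.0849). With all libraries kept, the call was lost with quantile normalization, no filter on low values, a variance prior without a trend, a replicate block, or both experiments in 1 fit. Over all alternatives the log2 fold change of *Ccnd2* went down to 0.02 and its adjusted p up to 0.650. *Ccna2*, the S-phase and G2 cyclin, was at 115 to 126 FPKM in WT and 110.3 to 115 in mutant libraries and did not pass the test (adjusted p = 0.0793). *Ccnd1* was listed at 0 in all 8 libraries.

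Of 6 kinase and CDC25 phosphatase genes tested, 5 rose and 1 fell, beside the same shares of all genes. *Cdk1* (chromosome 10, 69335146 to 69352938), the mitotic kinase, was at 136, 148, 135, and 139 FPKM in WT and 172, 181.95, 186.3, and 177 FPKM in mutant libraries. The groups were separate, and its log2 fold change was 0.36 (standard error 0.0401, adjusted p = 1.67e-04). *Cdk2*, the partner of cyclins E and A, rose from 43.8 ± 1.99 to 49.8 ± 1.97 FPKM (SD, n = 4 each). *Cdk4*, the G1 kinase and the member with the highest FPKM, fell from 283 ± 10.9 to 248 ± 10.1 FPKM (SD, n = 4 each, adjusted p = 0.00521). All 3 CDC25 genes rose. *Cdc25b* (chromosome 2, 131186949 to 131198497), which acts on CDK1 at the start of mitosis, was at 35.3, 39.1, 35.7, and 36.6 FPKM in WT and 48.2, 46.9, 43.2, and 45.1 FPKM in mutant libraries, without overlap (log2 fold change 0.32, standard error 0.046, adjusted p = 6.76e-04). *Cdc25c* rose from 8.57 ± 0.187 to 10.7 ± 0.171 FPKM and *Cdc25a*, which acts earlier on CDK2, from 28.7 ± 1.02 to 32.4 ± 1.78 FPKM (SD, n = 4 each). The kinases had no common direction.

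In the RB-E2F group *Rbl1* (chromosome 2, 157145893 to 157204534), which encodes p107, an RB relative and repressor of E2F targets in cycling cells, had the largest change of all members. It was at 25.7, 23.5, 22.3, and 22.8 FPKM in WT and 16.1, 14.8, 11.0, and 11.7 FPKM in HDAC1cKO-HDAC2HET libraries. All mutant libraries were below all WT libraries, and the mutant libraries also differed among themselves by more than the WT libraries did. *Rbl1* fell by 0.83 on the log2 scale (standard error 0.13, adjusted p = 8.98e-04). *E2f1*, an activating E2F, rose from 20.2 ± 1.21 to 23.3 ± 0.965 FPKM (SD, n = 4 each, adjusted p = 0.0102). *E2f2*, at 26.9 to 28.8 FPKM in WT and 26.2 to 29.3 in mutant libraries, and *Rb1*, at 17.2 to 19.5 and 16.6 to 20.2, did not pass the test, and their groups overlapped.

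Of 13 S-phase genes tested, 4 rose (30.8%), 3 fell (23.1%), and 6 did not pass the test. These shares were near those of all genes, 24.2% and 27.6%, and the median log2 fold change was 0.02. *Mcm2* (chromosome 6, 88883474 to 88898780), a subunit of the replicative helicase, was at 90.6, 102, 93.6, and 102 FPKM in WT and 125, 126, 118, and 133 FPKM in mutant libraries. It rose by 0.37 on the log2 scale (standard error 0.052, adjusted p = 5.94e-04). *Mcm4*, another subunit of the same hexamer, fell from 113 ± 4.61 to 95.5 ± 2.12 FPKM (SD, n = 4 each, adjusted p = 7.79e-04). *Mcm6* had an adjusted p of 0.0439 with a log2 fold change of 0.15 and overlapping groups, while *Mcm3*, *Mcm5*, and *Mcm7*, between -0.08 and 0.05, did not pass. The 6 helicase subunits did not share a direction.

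*Gmnn* (chromosome 13, 24751845 to 24761923), which encodes geminin, was at 81.7, 80.8, 76.8, and 81.3 FPKM in WT and 96.4, 104, 105, and 103 FPKM in mutant libraries. Every mutant library was higher, by 0.35 on the log2 scale (standard error 0.036, adjusted p = 1.17e-04). *Cdc6*, the loader of the helicase, rose from 31.0 ± 3.04 to 35.7 ± 1.38 FPKM (SD, n = 4 each, adjusted p = 0.0359), and WT replicate 4 lay within the mutant range. Both *Mcm6* and *Cdc6* depended on the processing and on which libraries entered the test. With all libraries kept, both were lost with quantile normalization, no filter on low values, a variance prior without a trend, or a replicate block. Over all alternatives the adjusted p went up to 0.392 for *Mcm6* and 0.120 for *Cdc6*. *Mcm6* was lost without WT replicate 1, 3, or 4 or HDAC1cKO-HDAC2HET replicate 2, 3, or 4, and its adjusted p over all 8 libraries left out in turn ran from 0.0151 (kept) to 0.107 (lost). *Cdc6* was lost without WT replicate 1, 2, or 3 or HDAC1cKO-HDAC2HET replicate 2, 3, or 4, and its adjusted p over all 8 ran from 0.00247 (kept) to 0.0866 (lost). *Cdc45*, part of the active helicase, was at 56.1 ± 0.612 FPKM in WT and 55.9 ± 2.44 FPKM in mutant libraries (SD, n = 4 each) and did not pass.

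*Pcna* (chromosome 2, 132249162 to 132253314), the sliding clamp of the replication fork, was at 259, 265, 265, and 265 FPKM in WT and 221, 224, 219.7, and 234 FPKM in mutant libraries. The fall was small but separated the groups (log2 fold change -0.23, standard error 0.028, adjusted p = 2.58e-04). Among the nucleotide supply genes, *Rrm1* (chromosome 7, 102441695 to 102469771), the large subunit of ribonucleotide reductase, was at 129, 142, 131, and 139 FPKM in WT and 102, 109, 106, and 107 FPKM in mutant libraries. *Rrm1* fell by 0.34 on the log2 scale (standard error 0.038, adjusted p = 1.68e-04). *Rrm2*, the small subunit that limits the enzyme to S-phase, was at 159 ± 9.36 FPKM in WT and 161 ± 6.32 FPKM in mutant libraries (SD, n = 4 each, adjusted p = 0.763). *Tk1*, thymidine kinase, had lower values in every mutant library, at 77.3 to 80.3 against 83.4 to 98.7 FPKM, but an adjusted p of 0.0561. Without WT replicate 4, at 98.7 FPKM, the adjusted p of *Tk1* was 0.0325.

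**Figure D2:**
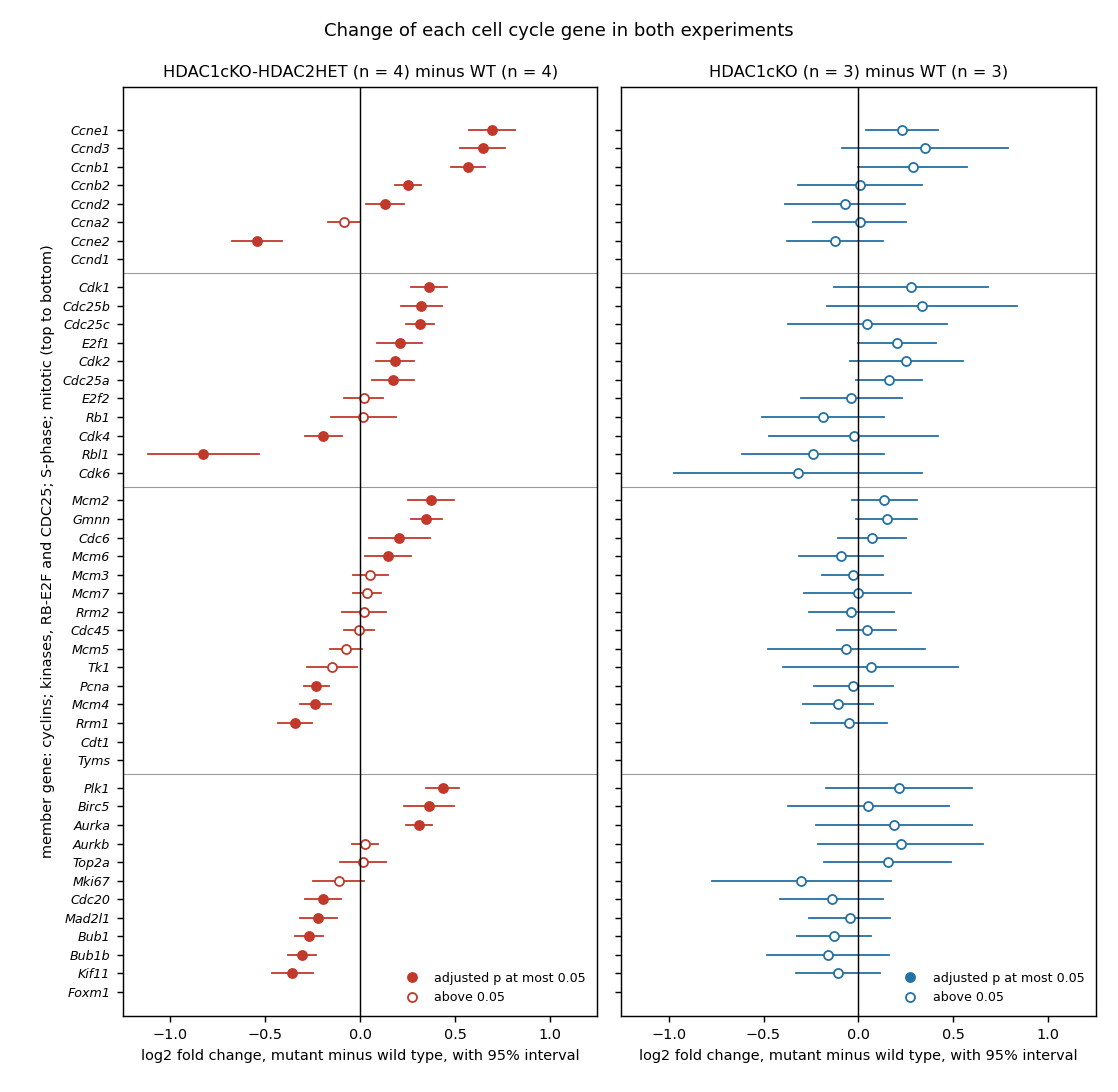
Log2 fold change of each member, mutant minus WT, with its 95% interval, in the HDAC1cKO-HDAC2HET experiment (left, 4 against 4 libraries) and the HDAC1cKO experiment (right, 3 against 3), ordered within each role by the left panel. Filled points had an adjusted p of at most 0.05, which held for 29 members on the left and for none on the right, where the intervals are wider.

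Of 11 mitotic genes tested, 3 rose (27.3%), 5 fell (45.5%), and 3 did not pass the test, beside 24.2% and 27.6% of all genes. Those that rose were the kinases *Plk1* and *Aurka* and the chromosomal passenger gene *Birc5*, and those that fell were *Bub1*, *Bub1b*, *Mad2l1*, *Cdc20*, and *Kif11*, the first 4 of which encode components or the target of the spindle assembly checkpoint. *Plk1* (chromosome 7, 122159439 to 122169873) was at 58.0, 61.9, 59.3, and 57.3 FPKM in WT and 76.5, 82.1, 77.9, and 83.0 FPKM in mutant libraries. The groups were far apart, and *Plk1* rose by 0.43 on the log2 scale (standard error 0.038, adjusted p = 5.41e-05). *Birc5* (chromosome 11, 117849251 to 117855743), which encodes survivin, was at 138, 163, 143, and 139 FPKM in WT and 193, 184.6, 181, and 189.9 FPKM in mutant libraries. WT replicate 2 was nearest to the mutant libraries but below them, and the log2 fold change was 0.36 (standard error 0.057, adjusted p = 0.00108). *Aurka* rose from 40.2 ± 0.971 to 49.9 ± 1.28 FPKM (SD, n = 4 each), whereas *Aurkb*, its paralog and the partner of survivin, was at 77.4 ± 2.37 and 78.8 ± 1.37 FPKM and did not pass (adjusted p = 0.514).

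*Kif11* (chromosome 19, 37376403 to 37421859), the kinesin that pushes spindle poles apart, was at 66.8, 75.7, 67.3, and 69.7 FPKM in WT and 55.9, 54.0, 55.8, and 52.1 FPKM in mutant libraries. *Kif11* fell by 0.36 on the log2 scale without overlap of the groups (standard error 0.046, adjusted p = 3.80e-04). The checkpoint kinase genes fell by similar amounts, *Bub1* from 30.1 ± 0.654 to 25.0 ± 0.777 FPKM and *Bub1b* from 48.2 ± 1.53 to 38.9 ± 0.888 FPKM (SD, n = 4 each). *Mad2l1*, which encodes MAD2, fell from 76.7 ± 4.50 to 65.7 ± 0.223 FPKM, and *Cdc20*, the activator of the anaphase-promoting complex that MAD2 restrains, from 151 ± 7.20 to 132 ± 4.25 FPKM (SD, n = 4 each). *Mki67* (chromosome 7, 135689784 to 135716361), the gene of the Ki-67 proliferation antigen, was at 74.7, 74.5, 72.4, and 72.9 FPKM in WT and 75.2, 65.5, 70.3, and 62.0 FPKM in mutant libraries. Its groups overlapped and it did not pass the test (log2 fold change -0.11, 95% interval -0.25 to 0.02, adjusted p = 0.141). Without HDAC1cKO-HDAC2HET replicate 1, the adjusted p of *Mki67* was 0.0215. *Top2a*, the topoisomerase that untangles chromosomes, was at 196 ± 13.8 FPKM in WT and 198 ± 6.14 FPKM in mutant libraries (SD, n = 4 each, adjusted p = 0.851).

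**Figure D3:**
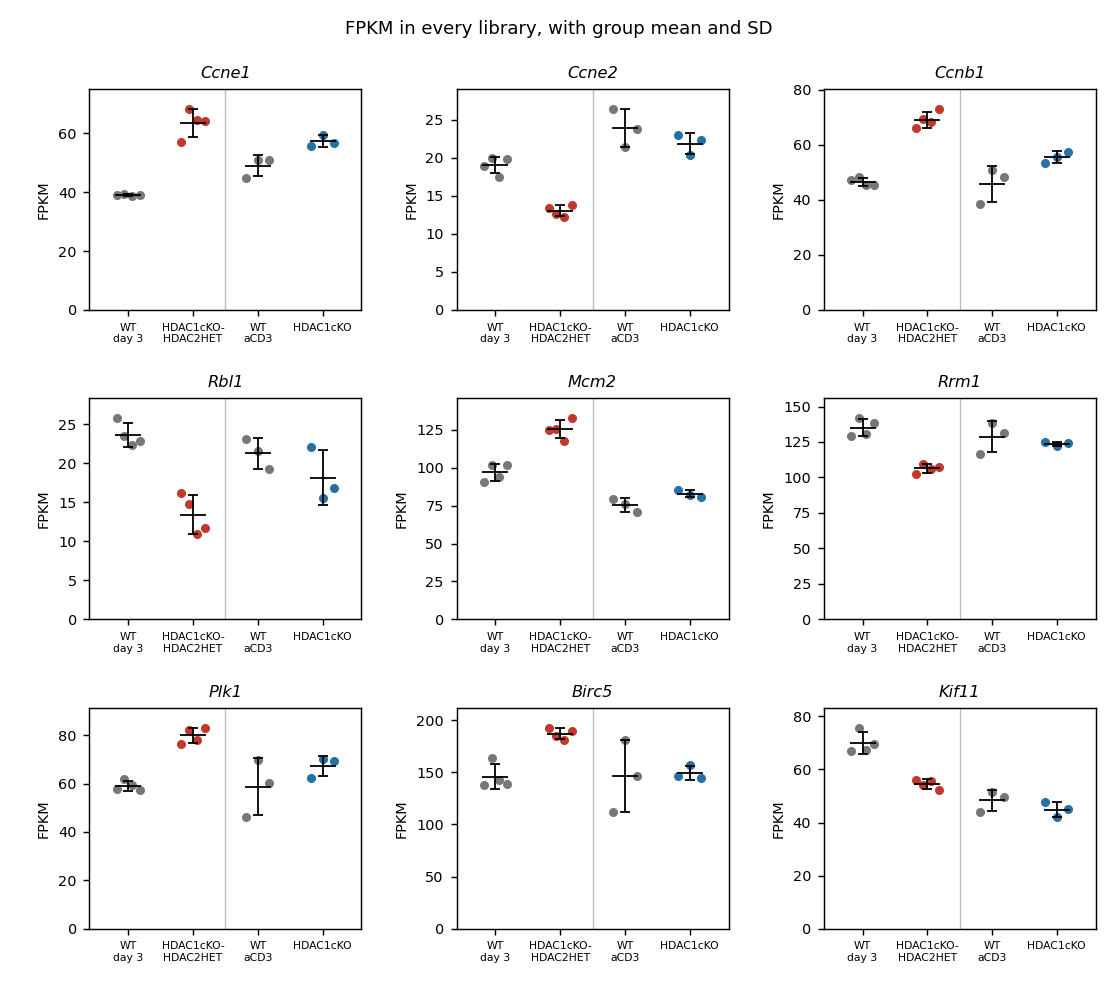
FPKM of 9 members in each library (points), with the group mean and SD (black), for both experiments on linear axes from 0. In the HDAC1cKO-HDAC2HET experiment, left of the grey line, the groups are separate in all 9 panels, with *Ccne1* at 38.7 to 39.6 against 57.1 to 68.3, and in the HDAC1cKO experiment they are separate only for *Ccne1*, *Ccnb1*, and *Mcm2*.

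Ratios of related members were taken within each library. The 4 pairs were chosen after their values were seen and are given without a test. The FPKM of *Ccne1* over that of *Ccne2* was 2.06 ± 0.106 in WT and 4.89 ± 0.551 in HDAC1cKO-HDAC2HET libraries (SD, n = 4 each), and 2.07 ± 0.346 in WT aCD3 and 2.63 ± 0.260 in HDAC1cKO libraries (SD, n = 3 each). The ratio of *Ccnb1* to *Ccna2* was 0.391 ± 0.0147 and 0.616 ± 0.0182 in the first experiment and 0.399 ± 0.0164 and 0.485 ± 0.0319 in the second. Both ratios were higher in the mutant libraries of each experiment. The ratio of *Plk1* to *Bub1b* was 1.23 ± 0.0486 and 2.05 ± 0.106 in the first and 1.48 ± 0.0638 and 1.93 ± 0.0810 in the second. That of *Mcm2* to *Mcm4* was 0.861 ± 0.0200 and 1.31 ± 0.0646 in the first and 0.729 ± 0.00824 and 0.864 ± 0.0523 in the second. In each of the 4 pairs the mutant libraries were all above the WT libraries in both experiments. The choice of pairs favoured this separation, and no share over other pairs of genes was taken. For *Ccne1* over *Ccne2* the gap in the second experiment was narrow, from 2.38 in WT aCD3 replicate 2 to 2.43 in HDAC1cKO replicate 1.

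In HDAC1cKO cells restimulated with anti-CD3 no member passed the test. Of 42 members tested, 0 rose and 0 fell by limma at an adjusted p of at most 0.05, and 1, *Ccne1*, had an unadjusted p below 0.05, which is 2.38% of the members against 14.3% of all genes. Over all 13916 genes tested, 0.0144% rose and 0.0575% fell. The fit of both experiments with 1 pooled spread called 1 of 41 members, *Ccne1* (adjusted p = 0.0478), and 1333 of all 13455 genes. The 3 libraries per group allow no exact permutation p below 0.1. The standard errors were larger here, with a median of 0.117 on the log2 scale against 0.0416 in the first experiment. All 42 intervals of the log2 fold change lay between -1 and 1. For 7 members, *Ccne1*, *Ccnb1*, *Cdk2*, *E2f1*, *Cdc25a*, *Mcm2*, and *Gmnn*, every HDAC1cKO library lay above every WT aCD3 library, and for 0 every one lay below. Among all genes these shares were 9.99% and 12.3%.

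*Ccne1* was at 44.9, 51.0, and 51.0 FPKM in WT aCD3 and 55.8, 59.5, and 56.7 FPKM in HDAC1cKO libraries (log2 fold change 0.23, 95% interval 0.04 to 0.42, adjusted p = 0.294). *Ccnb1* was at 38.5, 50.9, and 48.2 FPKM in WT aCD3 and 53.3, 55.7, and 57.6 FPKM in HDAC1cKO libraries (log2 fold change 0.29, adjusted p = 0.346). In both genes the groups were separate, by less than 5 FPKM. *Ccne2*, at 26.4, 21.4, and 23.8 FPKM in WT aCD3 and 23.0, 20.3, and 22.3 FPKM in HDAC1cKO libraries, and *Ccnd3*, at 75.8, 117, and 94.3 FPKM in WT aCD3 and 106, 119, and 137 FPKM in HDAC1cKO libraries, overlapped between the groups. *Rbl1* was at 23.1, 21.5, and 19.2 FPKM in WT aCD3 and 22.1, 15.5, and 16.8 FPKM in HDAC1cKO libraries, where HDAC1cKO replicate 1 lay among the WT aCD3 libraries and the other 2 below them.

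Among the S-phase genes, *Mcm2* was at 79.5, 76.0, and 70.8 FPKM in WT aCD3 and 85.3, 82.1, and 80.9 FPKM in HDAC1cKO libraries (log2 fold change 0.14, 95% interval -0.04 to 0.31). *Gmnn* was at 65.3, 58.6, and 62.0 FPKM in WT aCD3 and 68.5, 68.9, and 68.5 FPKM in HDAC1cKO libraries (log2 fold change 0.15, 95% interval -0.01 to 0.31). HDAC1cKO libraries were above WT aCD3 libraries in both genes. *Pcna* was at 251, 255, and 232 FPKM in WT aCD3 and 261, 238, and 226 FPKM in HDAC1cKO libraries, and *Rrm1* at 117, 138, and 131 FPKM in WT aCD3 and 125, 122, and 124 FPKM in HDAC1cKO libraries. The HDAC1cKO libraries reached past both ends of the WT aCD3 range for *Pcna* and lay within it for *Rrm1*.

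Replicate 1 of WT aCD3 stood apart in the mitotic genes and in some other lists. It was the lowest of the 3 WT aCD3 libraries in 10 of 11 mitotic members, with a median log2 ratio to the WT aCD3 mean of -0.25 against 0.14 and 0.06 in replicates 2 and 3. The median over all genes tested was -0.04 in that library. The shift was not limited to mitotic members. The median in that library was -0.36 over the CDC25 genes, -0.18 over the cyclins, and -0.28 over the CD4+ T cell markers. It was -0.12 over the other mitotic genes and 0.03 over the S-phase genes. *Plk1* was at 46.2, 69.7, and 60.2 FPKM in WT aCD3 and 62.5, 70.2, and 69.2 FPKM in HDAC1cKO libraries, *Birc5* at 112, 181, and 147 FPKM in WT aCD3 and 146, 157, and 145 FPKM in HDAC1cKO libraries, and *Kif11* at 43.9, 51.5, and 49.6 FPKM in WT aCD3 and 47.6, 41.9, and 45.0 FPKM in HDAC1cKO libraries. In all 3 genes the HDAC1cKO libraries lay within the WT aCD3 range or crossed an end of it. *Cdk1* was at 97.1, 143, and 138 FPKM in WT aCD3 and 137, 164, and 150.2 FPKM in HDAC1cKO libraries, and *Cdc25b* at 16.7, 27.8, and 25.6 FPKM in WT aCD3 and 32.3, 27.1, and 27.3 FPKM in HDAC1cKO libraries. For both, replicate 1 was the lowest of all 6 libraries. *Mki67* went the other way in it, at 62.8, 47.0, and 39.2 FPKM in WT aCD3 and 43.4, 33.9, and 41.9 FPKM in HDAC1cKO libraries. Without WT aCD3 replicate 1, 0 of 42 members passed the test, and 4 had an unadjusted p below 0.05, *Bub1b*, *Mcm2*, *Ccne1*, and *Gmnn*, or 9.52% of the members against 18.4% of all genes. With *Xist* above 1 FPKM as a sex covariate, the HDAC1cKO libraries were in effect set against WT aCD3 replicate 2 alone. Replicates 1 and 3 of WT aCD3 were above 1 FPKM and all HDAC1cKO libraries below it, so this fit could not separate sex from that library.

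**Figure D4:**
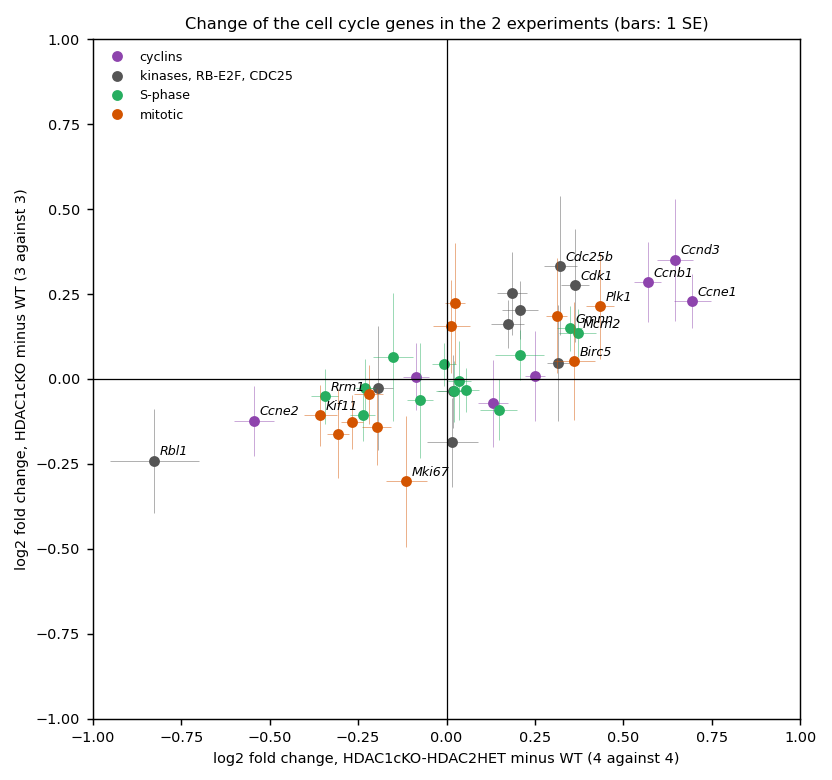
Log2 fold change of each of the 41 members tested in both experiments, HDAC1cKO-HDAC2HET minus WT (x axis) against HDAC1cKO minus WT (y axis), with bars of 1 standard error, coloured by role. Most members lie near the origin or to the upper right and lower left of it, with *Ccne1* at 0.69 and 0.23 and *Rbl1* at -0.83 and -0.24.

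The 2 experiments share no control library, so the direction of each member could be set side by side. Of the 18 members that rose in HDAC1cKO-HDAC2HET cells, 16 had a positive log2 fold change in the HDAC1cKO experiment, the exceptions being *Ccnd2* at -0.07 and *Mcm6* at -0.09. All 11 that fell had a negative value there. These shares, 88.9% and 100%, stood beside 80.7% of 3329 and 84.5% of 3659 genes that rose or fell in the first experiment and were tested in the second. The count for the members that rose went to 15 of 18 (83.3%) with quantile normalization, beside 81.2% of all genes. It was also 15 of 18 without HDAC1cKO replicate 1, beside 81.4% of all genes. It went to 14 of 18 (77.8%) without WT aCD3 replicate 1, beside 76.3% of all genes. With the sex covariate it was 12 of 18 (66.7%), beside 72.4% of all genes. The share of the members that rose was thus below that of all genes under the covariate and near it in the other settings just given. *Ccnb2*, *Cdc25c*, *Mcm6*, *Plk1*, *Aurka*, and *Birc5* were at or below 0 under the covariate. Under the covariate the signs rest on WT aCD3 replicate 2 alone, the only WT aCD3 library with *Xist* below 1 FPKM. That library was the highest of the WT aCD3 libraries in 7 of 11 mitotic members. The count for the members that fell stayed between 9 and 11 of 11 over the same settings and each library left out in turn. It was 9 of 11 (81.8%) without WT aCD3 replicate 2, beside 78.6% of all genes. Without HDAC1cKO replicate 3 it was also 9 of 11, beside 83.2% of all genes, so the share was not above that of all genes there.

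A contrast of both fold changes was fitted for the 41 members with a value in both experiments. *Ccne1* had a larger fold change in HDAC1cKO-HDAC2HET than in HDAC1cKO cells (difference 0.46 on the log2 scale, standard error 0.10, adjusted p = 0.0146). *Ccne2* (difference -0.42, standard error 0.12, adjusted p = 0.0443) and *Rrm1* (difference -0.29, standard error 0.085, adjusted p = 0.0450) had a more negative change in HDAC1cKO-HDAC2HET cells. Over the 12363 genes tested for the difference, 11.7% passed, against 3 of 41 members. *Pcna* (difference -0.20, adjusted p = 0.0960) and *Gmnn* (difference 0.20, adjusted p = 0.101) came next and did not pass. Allele number and stimulation differ together between the experiments, and their parts cannot be told apart. The 3 calls were lost without HDAC1cKO replicate 1 or 3, where *Ccne1* had an adjusted p of 0.0547 and 0.0556. They were also lost with the sex covariate, under which the HDAC1cKO change rests on WT aCD3 replicate 2 alone. Without WT aCD3 replicate 1, 8 members passed, with *Ccnb1*, *Ccnb2*, *Cdc25c*, *Plk1*, *Aurka*, and *Birc5* added and *Rrm1* lost. Without WT replicate 2 or 4, HDAC1cKO-HDAC2HET replicate 3, WT aCD3 replicate 3, or HDAC1cKO replicate 2, 1 member, *Ccne1*, passed.

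Other genes of the same pathways, from lists chosen with earlier results of these data known, are given beside the 24.2% of all genes that rose and the 27.6% that fell. Of 31 other replication genes tested in HDAC1cKO-HDAC2HET cells, 6 rose (19.4%) and 10 fell (32.3%), with a median log2 fold change of -0.02. *Chaf1b*, a subunit of the histone chaperone at the fork, rose from 30.5 ± 1.12 to 44.7 ± 1.17 FPKM, and *Cdc7*, the kinase that fires licensed origins, fell from 19.7 ± 0.678 to 13.8 ± 0.193 FPKM (SD, n = 4 each). Of 32 other mitotic genes, 10 rose (31.2%) and 10 fell (31.2%), with a median of 0.02. The largest changes were those of *Pttg1*, securin, from 23.6 ± 2.54 to 53.8 ± 4.13 FPKM (log2 fold change 1.19, adjusted p = 2.63e-05), and *Espl1*, separase, the protease that securin holds, from 19.2 ± 0.450 to 30.0 ± 0.728 FPKM (SD, n = 4 each).

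Of 26 other cyclins, E2F, and DREAM genes tested, 5 rose, *Lin37*, *Mybl2*, *Myc*, *Skp2*, and *Fzr1*, and 7 fell in HDAC1cKO-HDAC2HET cells. *Ccng2*, an atypical cyclin associated with cell cycle arrest, fell from 21.6 ± 0.815 to 8.43 ± 2.53 FPKM (log2 fold change -1.39, adjusted p = 4.05e-04), and *E2f7*, an atypical repressor E2F, from 6.44 ± 0.334 to 3.56 ± 0.385 FPKM (SD, n = 4 each). Of 6 CDK inhibitor genes tested, 1, *Cdkn2d*, rose, and 3, *Cdkn1a*, *Cdkn1b*, and *Cdkn2c*, fell. *Cdkn1b*, which encodes p27, fell from 22.6 ± 1.56 to 10.6 ± 1.54 FPKM (log2 fold change -1.10), and *Cdkn2c* from 29.8 ± 2.29 to 17.7 ± 1.33 FPKM (SD, n = 4 each). Of 7 housekeeping genes tested, 5, *Actb*, *Hprt*, *Tbp*, *Rplp0*, and *Ppia*, fell and 0 rose, by log2 fold changes down to -0.28. In the HDAC1cKO experiment 0 genes of the replication, mitotic, cyclin, and inhibitor lists passed the test by limma, and 0, 2, 4, and 3 of the 28, 33, 24, and 7 tested had an unadjusted p below 0.05, beside 14.3% of all genes. They were *Anln* and *Pttg1* of the mitotic genes, *Ccng2*, *E2f4*, *E2f6*, and *Mybl2* of the cyclin and E2F genes, and *Cdkn1b*, *Cdkn2a*, and *Cdkn2d* of the inhibitors. *Pttg1* had a log2 fold change of 0.75 there (adjusted p = 0.117).

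Levels per length, as FPKM in WT cells, put *Cdk4* (283 ± 10.9) first and *Pcna* (263 ± 3.06) second in the first experiment, without overlap of their libraries. *Top2a* (196 ± 13.8), *Mcm5* (192 ± 4.93), and *Mcm6* (184.9 ± 9.23) followed and overlapped each other. *Cdc25c* (8.57 ± 0.187 FPKM, SD, n = 4) was lowest of those above 0, below *Rb1* and *Ccne2*, whose ranges overlapped. In WT aCD3 libraries *Cdk4*, at 585 to 785 FPKM, and *Pcna*, at 232 to 255 FPKM, were again the highest and *Cdk6* and *Cdc25c* the lowest, with overlapping values. Levels were not compared between the experiments, whose loci were assembled separately.

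Not every member could be read. In the first experiment *Cdk6*, *Cdt1*, *Tyms*, and *Foxm1* had no usable value, and *Ccnd1*, at 0, was below the filter on low values. In the second *Cdt1*, *Tyms*, and *Foxm1* had none. *Ccnd1*, matched there by position, was at 0.525 FPKM in WT aCD3 replicate 1 and at 0 in every other library. A gene with a locus matched by position and listed at 0 was not used, so *Ccnd1* counted as without a usable value. The rows of *Cdk6* were marked as failed in WT replicates 3 and 4. Its locus in the second experiment reached the 3′ end of the gene only in WT aCD3 replicate 1, so its values, 12.2, 8.04, and 8.15 FPKM in WT aCD3 and 7.96, 5.35, and 9.62 FPKM in HDAC1cKO libraries, describe unlike pieces. *Ccne1*, *Ccnd3*, *Ccnb2*, and *Pcna* were read by locus in every WT library of the first experiment but by name in some HDAC1cKO-HDAC2HET libraries. The part of this in their changes was not tested. Of the 46 members, 15 overlap another protein-coding gene, among them *Ccnd3*, *Ccne2*, *Ccna2*, *Cdk2*, *Cdk4*, *Cdc25b*, *Mcm7*, *Cdc45*, *Tk1*, and *Cdc20*. Reads of these neighbours may enter their values, since use of strand in the assembly is not given in the sources used here.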

How the data were processed

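RNA-Seq of activated CD4+ T cells was read from 14 tables of transcript abundance, 1 per library. The deposited values are FPKM, which the authors made with TopHat 2.0.13 and Cufflinks 2.2.1 on mm10 from single-end reads. The submitters' processing notes also name FastQC, STAR 2.5.2b, Subread 1.5.1, R 3.4, and edgeR, without a role. Use of strand in the assembly is not given in the sources used here. Rows without a gene name were matched to GENCODE annotation by position, at a shared span of at least 0.8 of the joint span, and rows marked as failed by Cufflinks (2 to 13 per library among the genes used) were left out. Depth is not given in the tables. The steps of low values fitted whole fragments within 0.05 for 80.7% to 88.3% of low genes and put it at an estimated 23900000 to 56000000 fragments per library, lowest in HDAC1cKO-HDAC2HET replicate 3.

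For each experiment separately, log2(FPKM + 0.1) was modelled in limma 3.58.1 (R 4.3.3) with a trended variance prior over genes with a mean of at least 0.1 FPKM. Benjamini-Hochberg adjustment ran over all genes tested, and a gene passed at an adjusted p of at most 0.05. All fold changes are on the log2(FPKM + 0.1) scale. The difference between the experiments was a contrast over the 14 libraries with a variance weight per experiment, over genes tested in both. The code was tested on simulated data. Intervals cover 95%.

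The members and lists were chosen with earlier results of these data known. Values in every library are given for the 3 members with the largest absolute change in the first experiment among the cyclins, the S-phase, and the mitotic genes, for the largest of each other role, for the 5 members ranked first by the adjusted p of the contrast between experiments, for *Cdk1*, *Pcna*, and *Mki67* as reference, with ranges for the deleted genes, and for each other pathway list the 2 largest changes that passed are named. Genes named for a small count were named after their values were seen. Alternatives covered pseudocounts of 1 and 0.01, filters, scaling, variance prior, sample weights, a sex covariate, a replicate block, both experiments in 1 fit, and each library left out in turn. Replicate numbers did not pair the libraries.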

Additional observations from a re-analysis of the deposited data

Results flagged for a closer look

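In 6 of the 82 groups of 4 libraries examined (a member in a genotype of the first experiment), 1 library lay far from the other 3 by Dixon's criterion, which chance meets in about 1 in 20 groups. *Rb1* was at 17.2 FPKM in WT replicate 3, with the others at 19.2 to 19.5, and at 16.6 in HDAC1cKO-HDAC2HET replicate 3, with the others at 19.7 to 20.2. *Gmnn* was at 76.8 FPKM in WT replicate 3, against 80.8 to 81.7. *Pcna* was at 259 FPKM in WT replicate 1, against 264.8 to 265.1. *Tk1* was at 98.7 FPKM in WT replicate 4, against 83.4 to 85.5. *Mcm4* was at 92.4 FPKM in HDAC1cKO-HDAC2HET replicate 1, against 96.1 to 96.8.

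The fold changes of *Ccne1* (difference 0.46 on the log2 scale), *Ccne2* (difference -0.42), and *Rrm1* (difference -0.29) differed between the 2 experiments by the limma contrast. These were 3 of 41 members (7.3%), beside 11.7% of all genes. Of these 3 calls, 0 were kept under every alternative run.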

How the results depend on the processing

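In the first experiment, leaving out each library in turn gave 15 to 19 higher and 11 to 12 lower members, and 22 of the 29 calls were kept under every alternative run. With only loci matched by position in every library, a setting chosen after seeing the data, 18 members could be tested and 7 were higher and 7 lower. In the second experiment each library left out in turn gave 0 to 0 higher and 0 to 0 lower members, and fitting both experiments together gave 1 higher. The call of *Hdac1* there was lost with no filter on low values (log2 fold change -2.91, adjusted p = 0.0512), where more genes were tested. The count of members that differed between the experiments, 3, was 1 with no filter, 1 with a variance prior without a trend, 0 with the sex covariate, 0 of 16 with loci matched by position, and 0 to 8 with each library left out in turn. The cause was not tested. The share of member promoters with CCAAT was 44.4% on the gene's strand alone, beside 23.7% of all genes. Across members and settings, 793 values in the first experiment kept their call, 34 lost it, and 11 gained it. In the second 827 kept it and 1 gained it, and for the difference 1040, 35, and 7 did so. No called value changed sign.

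The replicate number as a block gave 14 higher and 11 lower members in the first experiment, 0 and 0 in the second, and 2 that differed. Deviations of same-numbered libraries correlated at -0.0085 to 0.067 in the first and -0.022 to 0.0095 in the second, and not every library correlated best with its own number. A sex covariate could not be fitted in the first experiment, where *Xist* exceeded 1 FPKM in all 8 libraries, and with named rows only no member could be tested. Depth was only estimated, so low values carry no count interval.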
